A study of Mus musculus with 20 samples.

Results

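The mitochondrial ribosomal protein genes were taken as the protein-coding genes whose symbol starts with Mrpl or Mrps followed by a digit, without Mrpl27, which gave 77 of the 35580 genes with a quantified transcript (22013 of them protein-coding). Of these, 50 encode proteins of the large subunit and 26 proteins of the small subunit. Mrps36 carries the name but belongs to the alpha-ketoglutarate dehydrogenase complex of the citric acid cycle. The values come from RNA sequencing of bulk brain tissue, with 5 samples in each of 4 groups: WT hippocampus, miR-324-null hippocampus, WT neocortex and miR-324-null neocortex. All mice were male, of strain C57BL/6J and 13.5 months old. The miR-324-null mice carry a CRISPR/Cas9 deletion at the microRNA gene Mir324 on chromosome 11 in every cell of the body. Founders of mixed C57BL/6 and CBA/ca origin were backcrossed to C57BL/6J, and heterozygotes were crossed to give the WT and miR-324-null lines. DNA that differs between these lines near the deletion therefore cannot be told apart from the deletion itself.

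Mitochondria keep a ribosome of their own, which translates the messenger RNAs of the mitochondrial genome into subunits of the respiratory chain and ATP synthase. Its ribosomal RNAs are encoded in mitochondrial DNA, whereas its proteins are encoded in the nucleus, made in the cytosol and imported. Some of these proteins descend from bacterial ribosomal proteins and others have no counterpart in the bacterial ribosome. Brain tissue, with its high demand for ATP, depends on them.

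Between 12752439 and 19617765 estimated counts were obtained per sample, of which the members took at most 0.223%. All 77 members passed the filter on low counts in every comparison, so each is counted below. Hippocampal markers (Prox1, C1ql2, Dsp, Zbtb20, Wfs1 and Tdo2) summed to 348 to 616 CPM (gene counts scaled to the same library total in every sample) in the hippocampus groups and to 127 to 272 in the neocortex groups, and 5 neocortical markers summed to 122 to 215 and to 475 to 774. The tissue labels therefore held in all samples. Some libraries stood apart all the same. The hippocampal markers reached only 353 and 348 CPM in miR-324-null hippocampus replicates 1 and 2, against 504 to 616 in the other hippocampus samples. They reached 229 to 272 CPM in 4 of the 5 miR-324-null neocortex samples, against 129 to 163 in the WT neocortex. Choroid plexus markers reached 4471 CPM in WT hippocampus replicate 3 and 3851 in miR-324-null hippocampus replicate 5, against at most 130 in the other hippocampus samples. In miR-324-null neocortex replicate 2 they reached 789 CPM, against at most 59.3 in the other neocortex samples. Markers of striatal neurons summed to 152 to 393 CPM in the miR-324-null neocortex and to 92.7 to 245 CPM in the WT neocortex. The remaining miR-324-null neocortex sample, replicate 5, was at 127 CPM of hippocampal markers, near the WT neocortex. Leaving out this replicate raised the genes called between genotypes in the neocortex from 47 to 566. In bulk tissue, fewer cells of a type and less RNA per cell cannot be told apart.

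The question of the genotype comparison was which transcripts differ once miR-324 is removed. No member passed an adjusted p of 0.05 in either tissue by edgeR's quasi-likelihood test over all genes. In the hippocampus 0 of 77 were called, against 0.115% of all genes, with 8 members at an unadjusted p under 0.05 (10.4%, against 11.1% of all genes). In the neocortex 0 of 77 were called, against 0.315% of all genes, with 6 at an unadjusted p under 0.05 (7.79%, against 12.2%). DESeq2 called 1 of 77 members in each tissue, Mrpl10 both times, where it called 1.52% of all genes (hippocampus) and 1.61% (neocortex). With transcript lengths as an offset, Mrpl10 was again the 1 member called in each tissue, against 0.115% and 0.201% of all genes by edgeR and 0.584% and 1.23% by DESeq2. A count of 1 in 77 is thus near the share of all genes with DESeq2. The paper, which used Tximport and DESeq2, lists Mrpl10 as significantly higher in miR-324-null samples in both tissues.

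Mrpl10 (ENSMUSG00000001445; GRCm38 chr11:97041560-97049213, plus strand) encodes the protein of the large subunit that anchors the stalk on which translation factors act. It was the member nearest to a call in both tissues. In the WT hippocampus its level was 48.4, 47.6, 50.1, 49.4 and 46.4 CPM in replicates 1 to 5, and in the miR-324-null hippocampus 63.6, 71.8, 57.6, 56.8 and 59.8 CPM. In the WT neocortex it was 41.5, 43.3, 41.1, 39.4 and 40.1 CPM, and in the miR-324-null neocortex 53.0, 47.3, 46.6, 47.4 and 46.7 CPM. Every miR-324-null sample lay above every WT sample of its tissue. In the hippocampus the log2 fold change was 0.35 (SE 0.067, edgeR adjusted p = 0.082), and in the neocortex it was 0.24 (SE 0.050, edgeR adjusted p = 0.082). With the length offset it was 0.51 (edgeR adjusted p = 0.0191) and 0.43 (edgeR adjusted p = 0.00128). DESeq2 without the offset gave adjusted p-values of 0.000812 and 0.0128. Mrpl10 was the sole member, 1 of 77, whose genotype groups did not overlap in both tissues in the same direction, a pattern found in 0.260% of all genes.

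The transcripts of Mrpl10 differed more than the gene as a whole, in a comparison added after the gene's values had been seen. The annotation gives Mrpl10 2 transcripts. Mrpl10-201 is 1708 bases long and encodes 262 codons. Mrpl10-202 is 744 bases long, has shorter ends, and lacks 234 coding bases (78 codons) of Mrpl10-201: the last 108 bases of exon 4 (chr11:97047450-97047557) and the first 126 bases of exon 5 (chr11:97048079-97048204). The reading frame is kept. The sequences at both edges of the missing stretch and at the junction that replaces them are shown because they are what distinguishes the 2 transcripts. Each is 30 bases of coding sequence on the plus strand, 5′ to 3′, taken from the GENCODE transcripts, and the capitals mark the 7 bases that both edges have in common.
Mrpl10-201, upstream edge (chr11:97047435-97047464): attccaaataccgaaACCTGCTaccccttt
Mrpl10-201, downstream edge (chr11:97048190-97048219): tggcccagacccgctACCTGCTtcagcacc
Mrpl10-202, junction: attccaaataccgaaACCTGCTtcagcacc
Since the repeat stands once in Mrpl10-202, the letters do not fix on which side of it the junction lies. As annotated, the intron begins with ac and ends with ct, and at none of the placements that the repeat allows does it begin with gt and end with ag, the letters at the ends of most introns.

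In the WT hippocampus Mrpl10-202 was listed at 0 estimated counts in all 5 samples, and in the WT neocortex at 0, 3.0, 3.45, 0 and 0. In the miR-324-null hippocampus it had 40.0, 83.5, 55.3, 62.2 and 54.1 estimated counts, and in the miR-324-null neocortex 22.5, 93.1, 74.8, 94.4 and 95.5. All 10 miR-324-null samples thus lay above all 10 WT samples, with replicate 1 of the neocortex the lowest of them. Against a floor of 3 counts per library, the transcript was at least 20.4-fold higher in the miR-324-null hippocampus than in WT. TPM divides counts by transcript length and scales them to the same total in every sample. In TPM, Mrpl10-202 averaged 12.4 ± 3.67 in the miR-324-null hippocampus against 0 in WT (SD, n = 5). In the neocortex it averaged 13.1 ± 4.73 against 0.263 ± 0.362. An exact permutation test, two-sided, gave p = 0.00794 in each tissue, the smallest that 5 against 5 can give. This value follows from the lack of overlap alone. It was not adjusted for choosing this transcript after the gene's values had been seen, so it adds no separate support.

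**Figure D1:**
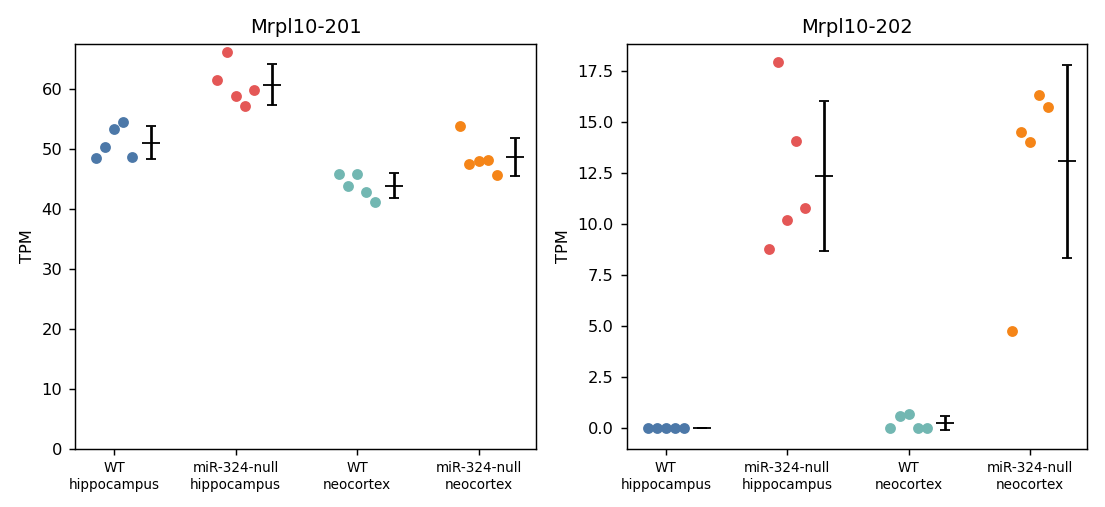
TPM of the transcripts Mrpl10-201 (left) and Mrpl10-202 (right), where points are the 5 samples of each group in order of replicate and the bars beside them the mean ± SD. Mrpl10-202 is at 0 to 0.705 TPM in all WT samples and at 4.79 to 17.9 TPM in all miR-324-null samples, whereas Mrpl10-201 overlaps between genotypes in the neocortex.

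Mrpl10-202 made up 12.5 to 21.3% of the gene's TPM in the miR-324-null hippocampus and 8.16 to 25.7% in the miR-324-null neocortex, against 0 and at most 1.51% in WT. The full-length Mrpl10-201 was itself higher in the miR-324-null hippocampus, at 57.2 to 66.2 TPM against 48.5 to 54.5 in WT, with no overlap. In the neocortex it stood at 45.6 to 53.9 TPM against 41.1 to 45.9, and the groups overlapped. A fit of edgeR over all transcripts did not call Mrpl10-201 in either tissue, with log2 fold changes of 0.25 (SE 0.071, unadjusted p = 0.0055, edgeR adjusted p = 1.0) and 0.10 (SE 0.069, unadjusted p = 0.16, edgeR adjusted p = 0.89). The same fit called Mrpl10-202 in the hippocampus (edgeR adjusted p = 0.0125), where it called 5 of 34338 transcripts higher and 5 lower. It did not call Mrpl10-202 in the neocortex (edgeR adjusted p = 0.098). With at most 3.45 estimated counts in a WT sample, Mrpl10-202 passed the low-count filter of this fit only through the miR-324-null samples. The transcript was also chosen after the gene's values had been seen, so the call adds no separate support. Kallisto divides the reads that fit both transcripts between them, so each level is an estimate that depends on the other. The files hold no reads, and whether the junction of Mrpl10-202 arose by splicing or from a difference in the DNA was not tested. The antisense gene Gm11574 overlaps 242 bases of Mrpl10 and was not quantified in these files.

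Mrpl10 lies 27.0 Mb from Mir324 on chromosome 11. Shares were taken for 34557 transcripts with a mean of at least 10 estimated counts, in genes with 2 or more quantified transcripts. Of these transcripts, 23 (0.0666%) had shares of their gene that did not overlap between genotypes in both tissues, in the same direction. Of these 23, 18 lie on chromosome 11. How many of all 34557 lie on that chromosome was not counted. Among 199 member transcripts the count was 2, both of Mrpl10, whose shares add up to the whole. Mrpl10-202 met the minimum count for this comparison only through the miR-324-null samples.

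The other 9 members on chromosome 11 did not pass the test. Their log2 fold changes ran from -0.10 to 0.23 in hippocampal samples, and the neocortical values lay between -0.17 and 0.09. Mrpl45, at 27.3 Mb from Mir324 the nearest of them to Mrpl10, encodes a protein of the large subunit that helps hold the ribosome at the inner membrane. It measured 27.0 to 29.8 CPM in the WT neocortex and 23.1 to 26.7 CPM in the miR-324-null neocortex, which did not overlap, and 27.9 to 32.7 and 25.6 to 29.3 CPM in the hippocampus, which did. Its log2 fold change was -0.17 in the neocortex (SE 0.057, edgeR adjusted p = 0.26) and -0.10 in the hippocampus (SE 0.064, edgeR adjusted p = 0.62).

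Mrpl58, which can release stalled ribosomes, Mrpl12, the stalk protein that binds to Mrpl10, Mrps7, Mrps24, Mrpl22, Mrpl38, Mrpl55 and Mrps23 make up the rest of the chromosome. Mrps23 of the small subunit had the largest hippocampal value among them, 0.23 (SE 0.088, edgeR adjusted p = 0.37), against -0.03 in the neocortex (SE 0.082, edgeR adjusted p = 0.92). Mrpl12 differed by 0.01 and 0.00 on the log2 scale. Counting separation alone, the genotype groups of 1 member (Mrpl10) did not overlap in the hippocampus, against 2.55% of all genes, and those of 2 (Mrpl10 and Mrpl45) in the neocortex, against 2.30%.

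**Figure D2:**
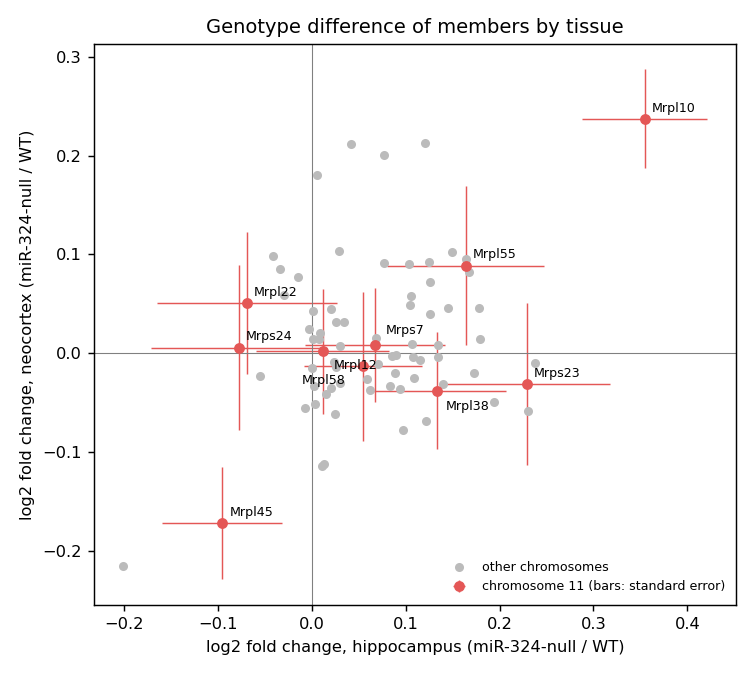
log2 fold change between miR-324-null and WT for the 77 members, hippocampus on the horizontal and neocortex on the vertical axis, with the 10 members on chromosome 11 in red (bars, standard error of the fit). Mrpl10 stands alone at the upper right, at 0.35 and 0.24. The lowest point on both axes is the unlabelled Mrps35 of chromosome 6, at -0.20 and -0.22. Mrpl45 also lies at the lower left, at -0.10 and -0.17, while most members lie within 0.1 of 0 in the neocortex.

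Off chromosome 11, the lowest value in both tissues was that of Mrps35, a small subunit protein on chromosome 6 singled out after its values were seen. Its log2 fold change was -0.20 in the hippocampus (SE 0.072, edgeR adjusted p = 0.35) and -0.22 in the neocortex (SE 0.085, edgeR adjusted p = 0.33). The groups overlapped in both tissues, at 14.5 to 16.5 CPM in the miR-324-null hippocampus against 16.1 to 19.4 in WT, and at 15.3 to 21.0 against 18.5 to 22.2 in the neocortex. Its highest value in the miR-324-null neocortex was that of replicate 5. In hippocampal markers replicate 5 was the miR-324-null neocortex sample nearest to WT, at 127 CPM against 129 to 163 CPM. Once it is left out, all miR-324-null neocortex samples lie above WT in these markers. The part of that difference in the calls below was not tested. Without that sample, edgeR called 2 members in the neocortex, Mrpl10 at 0.25 (SE 0.053, adjusted p = 0.0230) and Mrps35 at -0.29 (SE 0.068, adjusted p = 0.0334), among the 566 genes called in all (3.76%). Across the 77 members the genotype fold changes of both tissues had a Pearson r of 0.30 and a Spearman rho of 0.11, against 0.50 and 0.30 across the 14588 genes tested in both.

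As a group, the members leaned upward in the miR-324-null hippocampus, and lay near evenly on both sides of 0 in the neocortex. In the hippocampus 66 of 77 log2 fold changes were above 0 (85.7%, against 50.3% of all genes) with a median of 0.068, against 0.0012 over all genes. In the neocortex 40 of 77 were above 0 (51.9%, against 51.9% of all genes) with a median of 0.0059, against 0.0046. The neocortical values moved with single libraries: 56 of 77 were above 0 without miR-324-null replicate 2 (median 0.032) and 31 without replicate 5 (median -0.019). All 4 classes of subunit protein shared the hippocampal lean: 22 of 27 large subunit proteins with a counterpart in the bacterial ribosome were above 0, 22 of 23 large subunit proteins without one, 14 of 16 small subunit proteins with one and 8 of 10 without.

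The lean came with high sums of the members in 2 libraries. The summed level of the members was 2200 and 2247 CPM in miR-324-null hippocampus replicates 1 and 2, and 1963, 1940 and 1951 CPM in replicates 3, 4 and 5, against 1889 to 2017 CPM in the WT hippocampus. These 2 are the libraries with few hippocampal markers. Without both, 41 of 77 members were above 0, the median was 0.0052 (all genes, -0.0024), and edgeR again called 0 members, against 0.0859% of all genes, with a log2 fold change of 0.26 for Mrpl10 (SE 0.050, edgeR adjusted p = 0.146). The part that the makeup of the tissue plays in these values was not tested. In TPM, whose total also holds the mitochondrial transcripts, the members summed to 3712 to 4137 in the WT hippocampus and to 3949 to 4448 in the miR-324-null hippocampus, which overlapped. The sums were 3721 to 3952 TPM in the WT neocortex and 3756 to 4265 TPM in the miR-324-null neocortex.

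**Figure D3:**
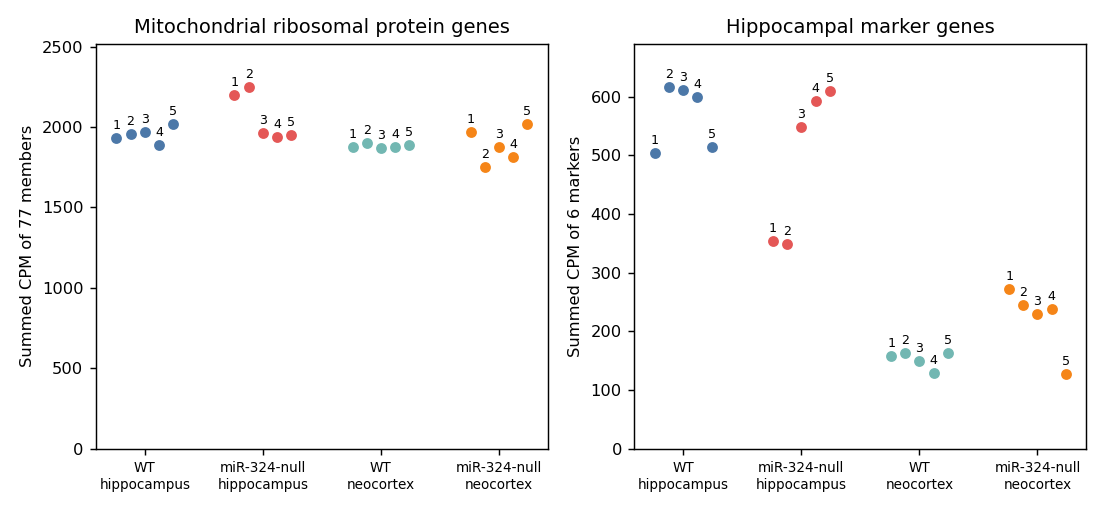
Summed CPM of the 77 members (left) and of 6 hippocampal marker genes (right) in each sample, with replicate numbers above the points. Replicates 1 and 2 of the miR-324-null hippocampus have the highest sums of the members, 2200 and 2247 CPM, and the lowest hippocampal marker sums of their tissue, 353 and 348 CPM.

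Between tissues, members were called higher in the hippocampus at a rate near that of all genes, and called lower at a smaller rate than all genes. In WT mice 15 of 77 members were called higher in the hippocampus (19.5%, against 18.1% of all genes) and 2 were called lower (2.60%, against 18.0%). In miR-324-null mice 13 were called higher (16.9%, against 13.8% of all genes) and 0 lower (against 13.6%). DESeq2 called 12 higher and 2 lower in WT mice (against 17.8% and 17.9% of all genes), and 14 higher and 0 lower in miR-324-null mice (against 14.2% and 14.9%). The median log2 fold change of the members was 0.068 in WT mice (all genes, -0.00077) and 0.14 in miR-324-null mice (all genes, 0.0081). Without miR-324-null hippocampus replicates 1 and 2, the calls in miR-324-null mice fell from 13 to 2, Mrpl10 and Mrpl50, while 10.4% of all genes were still called higher. The median was then 0.046.

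In both genotypes 7 members (9.09%, against 11.4% of all genes) were called higher in the hippocampus, and 0 (against 11.2%) were called lower. The 7 were Mrpl10, Mrpl17, Mrpl23, Mrpl57, Mrps16, Mrps33 and Mrps34. Of these, only Mrpl10 was still called in miR-324-null mice without hippocampus replicates 1 and 2, the libraries with few hippocampal markers. The other calls in miR-324-null mice were lost without those libraries. Fewer samples were then tested, and the share of all genes called in either direction also fell, from 27.4% to 20.8%. The cause of the lost calls was not tested. Mrpl57, a large subunit protein without a counterpart in the bacterial ribosome, had the largest average fold change. It measured 13.6, 15.5, 17.1, 15.5 and 15.1 CPM in the WT hippocampus against 12.3, 11.7, 12.5, 13.7 and 10.7 in the WT neocortex, so that 1 hippocampal sample lay below the highest neocortical one. Its log2 fold change was 0.34 in WT mice (SE 0.083, edgeR adjusted p = 0.0060) and 0.38 in miR-324-null mice (SE 0.11, edgeR adjusted p = 0.017).

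Mrps34 of the small subunit measured 20.4 to 25.5 CPM in the WT hippocampus and 16.4 to 19.3 CPM in the WT neocortex, which did not overlap. Its log2 fold changes were 0.29 and 0.42 in WT and miR-324-null mice (edgeR adjusted p = 0.0069 and 0.0086). It shares 642 near-identical bases with transcripts of Nme3, which could exchange reads with it. Mrpl23, which sits by the exit of the ribosome's tunnel, had log2 fold changes of 0.31 and 0.31, and Mrpl17 of 0.31 and 0.25. Mrpl10 had 0.24 and 0.37, and in WT mice, where Mrpl10-202 was at or near 0, its hippocampal samples (46.4 to 50.1 CPM) lay above all neocortical ones (39.4 to 43.3 CPM). Mrps33 and Mrps16 had 0.18 and 0.32, and 0.20 and 0.29. Mrps33 shares 321 near-identical bases with the processed pseudogene Gm5776, listed at a mean of 32.0 TPM against 139 TPM for Mrps33.

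Both members called lower in the WT hippocampus encode large subunit proteins without a counterpart in the bacterial ribosome, although Mrpl58 is related to a bacterial rescue factor. Mrpl58 measured 26.6 to 31.7 CPM in the WT hippocampus against 32.8 to 34.7 CPM in the WT neocortex, with a log2 fold change of -0.27 (SE 0.055, edgeR adjusted p = 0.0019). In miR-324-null mice it was -0.18 (SE 0.083, edgeR adjusted p = 0.12). Mrpl48 measured 61.2 to 63.7 CPM against 66.7 to 74.0 CPM, with a log2 fold change of -0.16 (SE 0.042, edgeR adjusted p = 0.0087), and -0.02 in miR-324-null mice (SE 0.053, edgeR adjusted p = 0.82). Neither pair of WT groups overlapped. Markers of neurons were lower in the WT hippocampus, where the summed level of 4 markers was 3758 to 4141 CPM against 5555 to 6069 CPM in the WT neocortex. Of 4 astrocyte markers, 3 were called higher and 1 lower in the WT hippocampus. The part of both cell types in the members' differences was not tested.

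**Figure D4:**
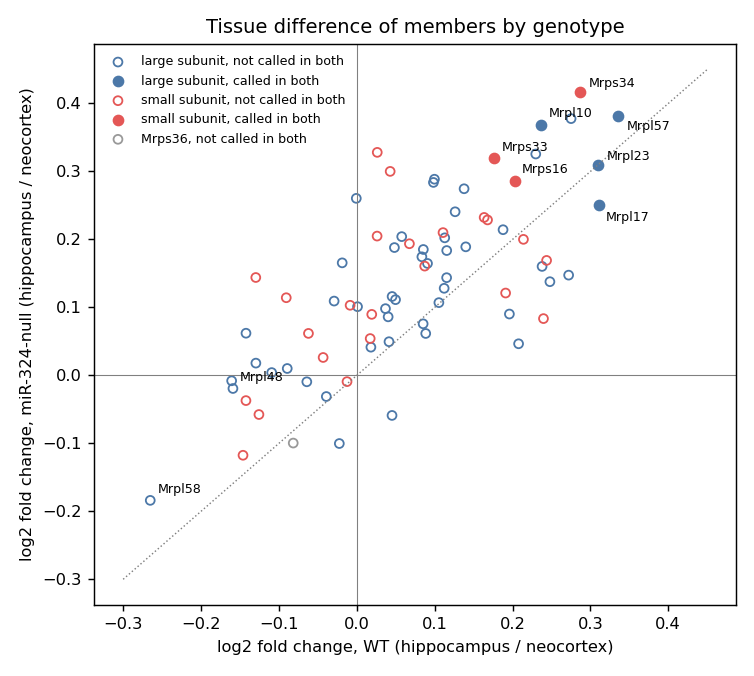
log2 fold change between hippocampus and neocortex for the 77 members, WT on the horizontal and miR-324-null on the vertical axis, where the dotted line marks equal values and filled points the 7 members called in both genotypes. Of the 77, 53 lie above 0 in both genotypes (68.8%, against 40.7% of all genes) and 11 below 0 in both (14.3%, against 39.4%). Mrpl58 is the lowest in both.

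The tissue fold changes of the members in WT and in miR-324-null mice, which share no samples, had a Pearson r of 0.72 and a Spearman rho of 0.69 over 77 members, against 0.88 and 0.80 over 14777 genes. The test of whether the genotype difference depended on tissue called 0 of 77 members by edgeR, against 0.0195% of all genes, with 2 members (2.60%, against 5.57% of all genes) at an unadjusted p under 0.05. DESeq2 also called 0, against 0.0390%.

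The members differed far more from one another than between groups. Mean TPM over all 20 samples ran from 7.48 for Mrpl1 to 241 for Mrps21, a 32.3-fold range, with a median of 45.4. TPM is divided by length, and the dominant transcript was shortest in Mrps21 (244 bases) and longest in Mrpl1 (3431 bases). In CPM, which is not, Mrps21 measured 21.3 to 29.1 and Mrpl1 12.1 to 16.8, both below the 58.6 to 74.0 of Mrpl48. The order below therefore holds for TPM only. The highest were Mrps21 (241 TPM), Mrps33 (139 TPM), Mrpl20 (122 TPM), Mrpl30 (114 TPM) and Mrpl42 (110 TPM). The lowest were Mrpl11 (18.1 TPM), Mrpl39 (15.9 TPM), Mrps10 (15.3 TPM), Mrps30 (9.04 TPM) and Mrpl1 (7.48 TPM). Mrps30, in spite of its name, is a protein of the large subunit in mammals. Mrps21 measured 209 to 287 TPM over the 20 samples and Mrps33 116 to 172 TPM, so that these did not overlap.

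Most neighbours in the order could not be ranked. Of 76 pairs of neighbours, 3 held their order in all 20 samples: Mrps21 above Mrps33, Mrpl41 above Mrpl48, and Mrps10 above Mrps30. The order as a whole was much the same in all groups, with Spearman rho between 0.97 and 0.99 for each pair of groups over the 77 members, and 7 members were among the 10 highest of every group. Within a group, the median coefficient of variation of a member's TPM over 5 samples was 7.91 to 8.37%. Averaged per gene, large subunit members stood at 50.3 ± 1.84 TPM and small subunit members at 54.0 ± 2.71 TPM in the WT hippocampus, and their ratio was 0.93 ± 0.015 there, 0.93 ± 0.031 in the miR-324-null hippocampus, 0.95 ± 0.030 in the WT neocortex and 0.96 ± 0.022 in the miR-324-null neocortex (SD, n = 5).

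**Figure D5:**
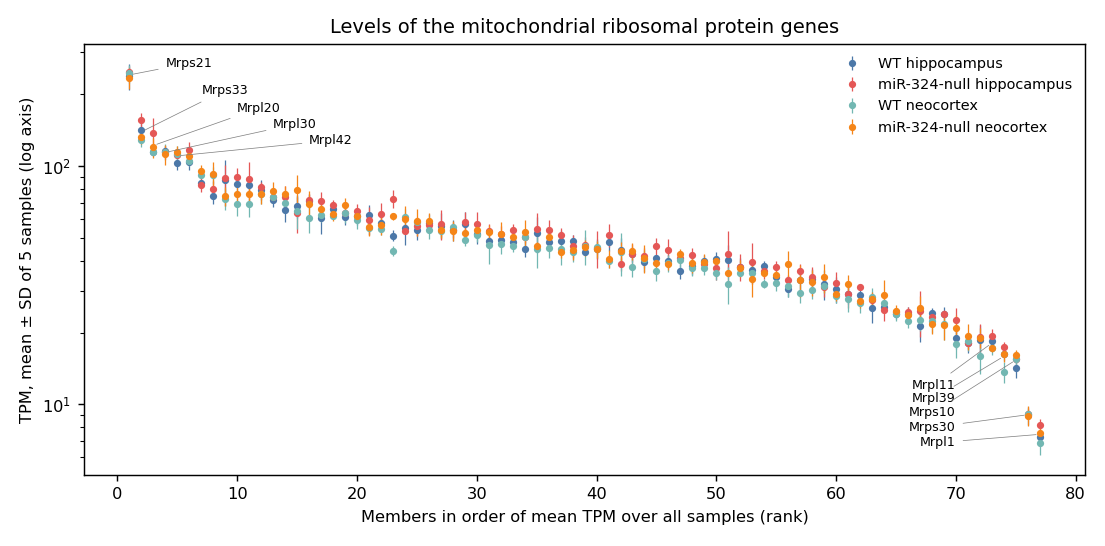
Mean TPM ± SD (n = 5) of each member in the 4 groups on a log axis, with members ordered by their mean over all samples and the 5 highest and 5 lowest named. Levels run from 7.48 TPM for Mrpl1 to 241 TPM for Mrps21, and the 4 groups lie close together for nearly every member.

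Transcripts annotated as protein-coding carried 71.4 to 72.5% of the members' TPM in the 4 groups, processed transcripts 11.7 to 12.5%, retained introns 9.31 to 9.68% and transcripts marked for nonsense-mediated decay 6.35 to 6.51% (group means). Of the 77 members, 48 have at least 100 bases at 95% identity in a transcript of another gene, 35 of them on the same strand, and reads from such stretches may be divided wrongly.

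Promoter sequence was given by RefSeq (GRCm38.p6) for 68 of the 77 members, from 250 bases before to 50 after the start site. The motif of NRF1, a transcription factor known for nuclear genes of mitochondria, was searched as CGCATGCG, which reads the same on both strands. It occurred in 7 of 68 member promoters (10.3%, against 2.07% of 27025 genes). The ETS motif CCGGAAG, searched on both strands, occurred in 25 (36.8%, against 9.93%), and the YY1 motif AAGATGGC, searched on both strands, in 12 (17.6%, against 3.19%). A match is a description of letters, not of binding. The windows of Mrpl10 and Mrpl17 are shown, since of the 7 members with the motif these were called higher in the hippocampus in both genotypes. Each is 30 bases, read 5′ to 3′ on the gene's strand, with the motif in capitals.
Mrpl10 (chr11:97041436-97041465, plus strand): gcccagctccaCGCATGCGcatagcggccc
Mrpl17 (chr7:105811079-105811108, minus strand): ccgagttactgCGCATGCGtcctctgagac
The motif starts 135 bases before the RefSeq start site in Mrpl10 and 10 bases before it in Mrpl17. RefSeq start sites can differ from those of the annotation used for quantification.

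Among genes that work with the mitochondrial ribosome, few were called between genotypes. None of 5 subunit genes with other symbols, 14 translation factors, 23 assembly and ribosomal RNA factors or 14 genes of mitochondrial transcription and biogenesis passed edgeR's test in either tissue, and DESeq2 called none of them. At an unadjusted p under 0.05 edgeR gave 2, 0, 1 and 0 in the hippocampus and 0, 0, 1 and 0 in the neocortex. Of all genes, 11.1% and 12.2% were under this threshold in the hippocampus and neocortex. The values that follow are those of the same lists. Their medians were 0.11, 0.08, 0.08 and -0.01 on the log2 scale in the hippocampus and 0.10, 0.05, 0.00 and 0.02 in the neocortex. Of 17 mitochondrial aminoacyl-tRNA synthetases 1 was called, in the neocortex, against 0.315% of all genes. This was Lars2, which charges the mitochondrial leucine tRNAs. It measured 286 ± 51.4 CPM in the miR-324-null neocortex and 194 ± 11.7 CPM in WT (SD, n = 5; log2 fold change 0.57, SE 0.10, edgeR adjusted p = 0.046). In the hippocampus the difference was 0.63 (SE 0.31, edgeR adjusted p = 0.47), at 611 ± 299 CPM against 395 ± 123 CPM in WT. Lars2 was also higher in the hippocampus than in the neocortex, by 1.03 and 1.10 on the log2 scale in WT and miR-324-null mice. Most miR-324-null neocortex samples held more hippocampal markers than WT. The part of this in the genotype difference of Lars2 was not tested.

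Between tissues, 18.1% of all genes were called higher and 18.0% lower in the hippocampus in WT mice, and 13.8% and 13.6% in miR-324-null mice. The counts below are not read as a trait of these lists. Of the 23 assembly factors, 2 were called higher and 1 lower in the hippocampus in each genotype. Mtg1, a GTPase of large subunit assembly, had log2 fold changes of 0.25 and 0.27 in WT and miR-324-null mice, and C1qbp, a matrix protein, of 0.19 and 0.30. Mrm1, which methylates the large ribosomal RNA, had -0.55 and -0.43. Of the synthetases, 3 were higher and 2 lower in WT mice, and 1 higher and 1 lower in miR-324-null mice: Lars2 was higher by 1.03 and 1.10 on the log2 scale, and Aars2, for alanine, had -0.27 and -0.29. Of the transcription and biogenesis genes, 3 were higher and 1 lower in WT mice, and 1 higher and 2 lower in miR-324-null mice, with Lrpprc, which stabilises mitochondrial messenger RNAs, at 0.16 and 0.21. Translation factors gave 0 calls in WT mice and 1, upward, in miR-324-null mice, and subunits with other symbols gave 0 in both, by edgeR and by DESeq2 alike. At an unadjusted p under 0.05 edgeR gave 1 and 2 translation factors and 1 and 1 subunits, against 44.1% and 38.5% of all genes. The 13 messenger RNAs that the ribosome translates summed to 100058 to 126067 CPM in the WT hippocampus, 97541 to 113408 in the miR-324-null hippocampus, 94060 to 121685 in the WT neocortex and 87797 to 115122 in the miR-324-null neocortex, all of which overlapped.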

How the data were processed

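The authors prepared stranded poly(A) libraries, quantified them with kallisto against the mouse GRCm38 transcriptome (release 92), and used Tximport and DESeq2. Their processing notes name GRCh38, but the identifiers are mouse. The deposited files give estimated counts, TPM and effective lengths per transcript. Whether strand was used is not given in the sources used here. Of 115270 transcripts, 113580 matched GENCODE vM21, leaving at most 0.556% of counts unmatched.

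Estimated counts were summed per gene, rounded and tested with edgeR 4.0.16 (quasi-likelihood, TMM, default filter, Benjamini-Hochberg over all genes, threshold 0.05), 2 groups at a time. The standard error is the log2 fold change divided by the square root of F. CPM used TMM over all 20 samples. R 4.3.3, DESeq2 1.42.0, scipy and BLAST 2.17.0 were also used, and the fits were tested on simulated data. Transcript shares used transcripts with a mean of at least 10 estimated counts. Members named are those called, those on chromosome 11, the 5 largest tissue differences each way called in both genotypes, the 5 highest and 5 lowest levels, and those separating the genotypes in both tissues. Of the other lists, genes called between genotypes and the 2 largest tissue changes each way called in both genotypes are named. Members and lists were chosen with earlier results of these data known. P-values measure the spread between these samples, and floors cover counting error only.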

Additional observations from a re-analysis of the deposited data

Results flagged for a closer look

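The 5 samples of each group were examined for 1 far from the other 4, by Dixon's criterion, in the CPM of every member, in the members' sums and in both transcripts of Mrpl10. In 14 cases, 4.32% of the sets examined, a sample stood out. Chance alone gives about 1 in 20, so their number is not above that of chance. In Mrpl10, miR-324-null neocortex replicate 1 had the highest level of the gene, 53.0 CPM (the others, 46.6 to 47.4), and the lowest level of Mrpl10-202, 4.79 TPM (the others, 14.0 to 16.3). Mrps21 was at 29.1 CPM in miR-324-null hippocampus replicate 2 (the others, 23.5 to 24.6), and Mrpl34 at 9.60 CPM in replicate 1 (the others, 7.45 to 7.82). In the WT hippocampus, Mrpl18 was at 27.2 CPM in replicate 4, and Mrpl21 and Mrpl37 at 19.5 and 35.0 CPM in replicate 5. In the WT neocortex, Mrpl14 was at 9.45 CPM and Mrpl40 at 21.2 CPM in replicate 1, Mrpl47 at 16.1 CPM in replicate 2, Mrpl22 at 9.15 CPM in replicate 3 and Mrps2 at 25.8 CPM in replicate 4. In the miR-324-null neocortex, Mrpl48 was at 70.2 CPM in replicate 5 and Mrpl52 at 8.08 CPM in replicate 4.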

How the results depend on the processing

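Mrpl10 was the 1 member called between genotypes in the hippocampus by DESeq2, by either tool with the length offset and by the fit of all 20 samples, and in the neocortex by DESeq2 and by either tool with the offset. The fit of all 20 samples called 0.539% of all genes there. Leaving out 1 replicate gave 0 called in the hippocampus (0.0665 to 0.209% of all genes) and 0 to 2 in the neocortex (0.179 to 3.76%). Between tissues it gave 11 to 18 in WT mice (32.0 to 36.1% of all genes) and 8 to 17 in miR-324-null mice (22.7 to 27.5%). The length offset lowered the tissue calls to 9 in WT mice with both tools, and to 8 in miR-324-null mice with edgeR. Over all genes, edgeR's tissue calls fell with it from 36.1% to 29.1% in WT mice and from 27.4% to 22.1% in miR-324-null mice. DESeq2 with the offset called 30.8% in WT mice. The fit of all 20 samples gave 13 in WT mice (33.5% of all genes) and 21 in miR-324-null mice (32.5% of all genes). Without both miR-324-null hippocampus libraries with few hippocampal markers, an alternative chosen after seeing the data, 2 were called (20.8% of all genes). The cause of these changes was not tested, beyond the smaller number of samples where some were left out.

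The labels do not say whether same-numbered samples of both tissues come from 1 mouse. Their deviations correlated at -0.10 to 0.10 in WT and 0.017 to 0.18 in miR-324-null mice, and 2 and 3 of 5 correlated best with their own number, so pairing was not established and the comparisons were left unpaired. With a replicate block, members called were 0 and 0 between genotypes, 12 and 14 between tissues (33.9% and 26.9% of all genes), and 0 in the interaction. Between genotypes, all genes called fell to 4 from 17 in the hippocampus and to 30 from 47 in the neocortex, whereas DESeq2 called 138 and 240. Rescaled to nuclear genes, the summed TPM was 5238 and 5483 in the WT and miR-324-null hippocampus and 5047 and 5211 in the neocortex. From protein-coding transcripts alone it was 2861, 3039, 2780 and 2883. Leaving out 1 replicate turned the sign of 3 tissue log2 fold changes that were not called: Mrpl48 in miR-324-null mice (-0.035 to 0.016, and 0.0053 without hippocampus replicate 3), Mrps6 in WT mice (-0.0073 to 0.063, and -0.0069 without neocortex replicate 2) and Mrps9 in WT mice (-0.026 to 0.071). Without both libraries with few hippocampal markers, that of Mrps24 in miR-324-null mice turned to -0.0024.

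Of 1245 recomputed fold changes of single genes, 1046 kept their direction and side of the threshold, 174 lost the call, 18 gained it and 7 turned. Depth limits what can be said of Mrpl10-202 in WT samples, which had at most 3.45 estimated counts.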
